A study of Mus musculus with 25 samples.

Results

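Short internal introns, of 11 to 120 bases, were followed in mouse mammary tumors that model triple-negative breast cancer, from 4 lines, under the splicing modulator H3B-8800 or vehicle. An intron was taken when its length lay in that range and it was neither the first nor the last intron of its gene, with introns numbered in the direction of transcription. This gave 11942 introns in 4839 genes, out of 163337 introns in 17596 genes. They make up 7.31% of all introns and 9.21% of the 129610 internal introns. The choice used length and position only, not reads.

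Tumors of 4 transplantable lines from genetically engineered mice, T11, PyMT-M, AT3 and 2208L, had been placed in the mammary gland of female mice, 4 to 5 weeks old at transplant. T11 and 2208L grew in Balb/c hosts and PyMT-M and AT3 in C57BL/6 hosts, and the mice were randomized to daily H3B-8800 or vehicle. The 25 libraries of polyadenylated RNA comprise 3 vehicle and 3 H3B-8800 tumors of T11, 4 and 4 of PyMT-M, 3 and 2 of AT3, and 3 and 3 of 2208L. Response status in the labels is responder for PyMT-M and 2208L and nonresponder for T11 and AT3, and its measure is not given there. The design text describes replicates as separate tumors, so p-values measure the spread between tumors, and no batch is named. RNA came from whole tumors, with host stroma and immune cells included, so fewer cells of a type and less RNA per cell cannot be told apart.

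Splicing removes an intron in steps that begin when the U1 particle pairs with its start and the U2 particle with its branch point, an adenosine upstream of its end. SF3B, the part of the U2 particle that holds the branch point, is the target of H3B-8800, an oral small molecule. Very short introns are thought to be recognised across the intron itself, because both of its ends lie close together, whereas in genes with long introns the exon is the unit that is recognised. An intron that is not removed is called retained, and its RNA may stay in the nucleus or be degraded.

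In all libraries retention is given as the percent of reads inside, that is, the reads inside an intron over all reads that overlap it, inside or spliced across. The percent is not adjusted for intron length, and a longer intron collects more reads when it is retained. The sequences below show what such an intron holds: its start, its end and, in between, little room for the branch point and the run of pyrimidines after it. They were chosen after their values were seen, because an intron could be read only where it lies wholly inside an exon of another transcript of GENCODE M21, which was so for 1765 of the 11942. Each is the transcribed strand, 5′ to 3′, on mm10 (GRCm38). Capitals mark the starting GT, the final AG and each match to CTNAC, a motif that resembles the branch point, searched on the transcribed strand only. The first 5 are introns whose percent inside rose with H3B-8800 in the mean of PyMT-M, AT3 and 2208L, and the last 4 are introns of very highly expressed genes that stayed almost fully spliced.
Cdc34 intron 2, chr10:79684905-79685004, plus strand: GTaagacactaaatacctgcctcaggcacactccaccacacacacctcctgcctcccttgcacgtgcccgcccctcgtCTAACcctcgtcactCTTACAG
Eif4g1 intron 11, chr16:20681317-20681419, plus strand: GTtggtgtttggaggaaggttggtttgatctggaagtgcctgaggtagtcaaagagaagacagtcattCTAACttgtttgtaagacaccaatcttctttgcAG
Apeh intron 4, chr9:108092883-108092980, minus strand: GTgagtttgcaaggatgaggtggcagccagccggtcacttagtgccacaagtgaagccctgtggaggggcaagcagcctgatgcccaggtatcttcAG
Bop1 intron 4, chr15:76455800-76455871, minus strand: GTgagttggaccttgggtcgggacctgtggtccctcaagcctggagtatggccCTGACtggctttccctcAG
Rbm5 intron 13, chr9:107751792-107751875, minus strand: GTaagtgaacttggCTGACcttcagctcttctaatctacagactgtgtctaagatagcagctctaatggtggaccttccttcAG
Eef1a1 intron 3, chr9:78480149-78480240, minus strand: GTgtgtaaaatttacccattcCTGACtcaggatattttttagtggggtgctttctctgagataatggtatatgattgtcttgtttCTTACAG
Eef1a1 intron 5, chr9:78479535-78479623, minus strand: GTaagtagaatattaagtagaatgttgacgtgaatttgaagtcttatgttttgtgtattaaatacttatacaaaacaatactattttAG
Hspa8 intron 7, chr9:40804364-40804462, plus strand: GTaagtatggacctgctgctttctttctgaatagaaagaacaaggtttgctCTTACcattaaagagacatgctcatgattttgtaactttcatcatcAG
Hsp90ab1 intron 5, chr17:45570567-45570665, minus strand: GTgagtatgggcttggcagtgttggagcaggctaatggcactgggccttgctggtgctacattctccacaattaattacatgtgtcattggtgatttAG
Of the 1765 introns with a sequence, 1751 (99.2%) begin with GT and end with AG, and 13 begin with GC and end with AG. Their median GC content was 57.1%, and 726 (41.1%) hold a CTNAC match. In Cdc34 intron 2 and Eef1a1 intron 3 the last match runs into the final AG. Both sets of printed introns include some with a match and some without. A match is a description of the letters and not a mapped branch point.

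The introns with a sequence differ in how they responded. Cdc34 encodes a ubiquitin-conjugating enzyme, and its intron 2 held no read in any vehicle library of PyMT-M, AT3 or 2208L. With H3B-8800 the percent inside was 14.5%, 6.95%, 9.36% and 8.12% in the PyMT-M libraries, 2.45% and 10.6% in AT3 and 0.667%, 0.692% and 1.01% in 2208L. Rbm5 encodes an RNA-binding splicing regulator, and its intron 13 stood at 0%, 0%, 0.73% and 1.88% in PyMT-M vehicle tumors and at 64.3%, 61.8%, 59.1% and 56.7% in those given H3B-8800. The log2 change of Rbm5 intron 13 over the 3 models was 5.52 ± 0.60 (SE; edgeR quasi-likelihood test, adjusted p = 1.78e-12). Apeh intron 4 stood at 0%, 0%, 1.23% and 0% in PyMT-M vehicle libraries and at 13.4%, 31.6%, 16.3% and 26.3% with H3B-8800. Bop1 intron 4, of a ribosome assembly factor, held no read in PyMT-M vehicle libraries and 20.5%, 25%, 15.2% and 18.4% with H3B-8800. In each of these PyMT-M comparisons the treatment groups did not overlap.

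The 11942 introns have a median length of 91 bases, with quartiles of 83 and 103, and 113 are under 70 bases. A length that is a multiple of 3 occurred in 3775 (31.6%). An intron of GENCODE M21 matches 11938 of them. Among the 4839 genes, 2517 have 1 such intron each, 2322 have several and 131 have at least 10, led by Ttn with 86, Col7a1 with 65 and Lama5 with 39. An annotated exon of some transcript overlaps 2507 of them, and 9435 hold none. Reads over these introns numbered 917721 to 2030421 per library, which is 5.27% to 9.41% of the 10863779 to 22377777 overlapping reads. The mean over all libraries reached 20 overlapping reads in 7096 introns (59.4%), 4846 lay below, and 630 of those had no read at all. The 95% Wilson interval of a library's pooled percent spans 0.0155 to 0.0538 percentage points on either side, for counting error only.

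Markers of the cell types a tumor can hold were summed as CPM, spliced reads scaled to library size. Epithelial markers stood at 3188 to 7495 CPM in PyMT-M and 2208L and at 103 to 426 in T11 and AT3, where Epcam was at most 8.88 CPM, so the epithelial identity of T11 and AT3 is not seen in these markers. Mesenchymal markers, Vim among them, were at 15158 to 20456 CPM in T11 and 7610 to 9782 in AT3. In 2208L they were at 4421 to 9749 CPM, which overlaps AT3, and in PyMT-M at 1321 to 2368. Skeletal muscle markers reached 8612 CPM in T11 vehicle replicate 3 and 5548 in 2208L vehicle replicate 1, and at most 1093 in the others. The summed level of 11 macrophage markers was higher with H3B-8800, without overlap, in PyMT-M (624 to 929 against 167 to 429), in 2208L (1727 to 1948 against 345 to 1095) and in T11 by its labels (997 to 1086 against 527 to 938). In AT3 the groups overlapped (924 to 956 against 730 to 1208). B cell and plasma cell markers were higher in 2208L given H3B-8800 (49.2 to 71.7 against 3.36 to 6.80). They were highest in the library labelled T11 H3B-8800 replicate 2, at 287 CPM with T cell markers at 183, and in AT3 vehicle replicate 2, at 99.3 with T cell markers at 56.0. The part of these cells in the percent inside was not tested. Introns in muscle genes, 172 of the 11942, took at most 2.20% of a library's reads over short internal introns.

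Pooled over all short internal introns, the percent inside was higher with H3B-8800 in PyMT-M, AT3 and 2208L. In PyMT-M it was 2.62%, 1.45%, 2.44% and 2.83% in vehicle tumors and 10.9%, 10.4%, 8.41% and 9.39% with H3B-8800. In AT3 it was 1.53%, 3.09% and 1.76% against 4.71% and 5.55%. In 2208L it was 1.01%, 1.46% and 1.38% against 3.43%, 2.86% and 3.12%. In each of these models the lowest H3B-8800 library lay above the highest vehicle library. PyMT-M rose from 2.34% ± 0.614 (SD, n = 4) to 9.77% ± 1.10 (SD, n = 4), the largest difference of the 3 at 7.43 percentage points (exact permutation test, 2-sided, p = 0.029, the smallest that 4 against 4 can give).

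AT3 differed by 3.00 points, from 2.13% ± 0.842 (SD, n = 3) to 5.13% ± 0.597 (SD, n = 2), and 2208L by 1.85 points, from 1.28% ± 0.236 to 3.13% ± 0.285 (SD, n = 3 each). Their exact permutation p-values, 0.2 and 0.1, are the smallest these designs allow and cannot pass 0.05. AT3 vehicle replicate 2, the library with the B cell and T cell markers, had the highest percent of its group, and without it the AT3 difference was 3.48 points. Averaged over the 3 models with labels permuted within each, the difference was 4.10 points (exact permutation test, 2-sided, p = 0.000143, the smallest possible). Vehicle tumors of PyMT-M and AT3, which share the host strain, differed by 0.212 points (exact permutation test, p = 0.743).

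T11 ran against its labels. The libraries labelled vehicle stood at 2.32%, 4.76% and 3.21% and those labelled H3B-8800 at 1.19%, 1.32% and 1.28%, without overlap. The difference, H3B-8800 minus vehicle by label, was −2.17 points (exact permutation test, p = 0.1, the smallest possible). The T11 difference minus the mean difference of the other models was −6.26 points, given with no test, since it was computed with the direction of T11 known. T11 is given apart for its direction, so means over the other 3 models leave out the model that ran the other way. With T11 by its labels the mean over 4 models was 2.53 points (exact permutation test, 2-sided, p = 0.00356).

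**Figure D1:**
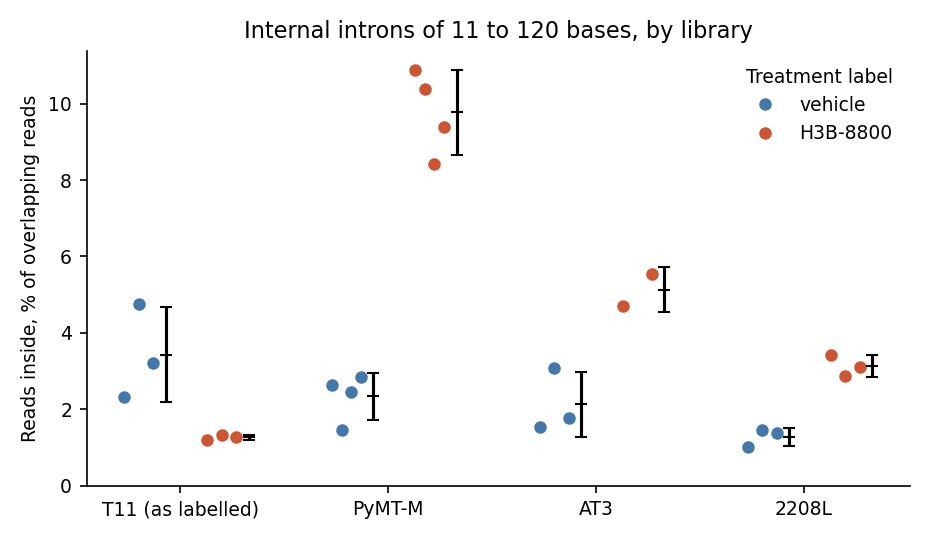
Percent of reads inside short internal introns (y axis, pooled over 11942 introns) in each of the 25 libraries, by model and labelled treatment; points are libraries and bars are group means. H3B-8800 libraries of PyMT-M sit between 8.41% and 10.9% and those labelled H3B-8800 in T11 between 1.19% and 1.32%.

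Longer internal introns also held more reads with H3B-8800. Their increase was smaller than that of the short ones on the log2 scale of intronic over spliced reads, but not in percentage points. The 117667 internal introns of over 120 bases went from 14.1% ± 4.28 to 25.4% ± 4.30 inside in PyMT-M (SD, n = 4 each). On the log2 scale, the short introns rose by 2.22 in PyMT-M, 1.38 in AT3 and 1.33 in 2208L, and the longer ones by 1.08, 0.70 and 0.78. The mean over the 3 models was 1.64 for short introns and 0.86 for longer ones (exact permutation tests, 2-sided, p = 0.000143 and 0.000571). The difference between short and longer introns was itself tested. It was 1.14 in PyMT-M, 0.68 in AT3 and 0.55 in 2208L, 0.79 on average (exact permutation within models, 2-sided, p = 0.000143, the smallest possible). In T11, by its labels, short introns fell by 0.91 more than longer ones. With T11 counted by its labels the mean over 4 models was 0.36 (exact permutation, p = 0.0576).

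**Figure D2:**
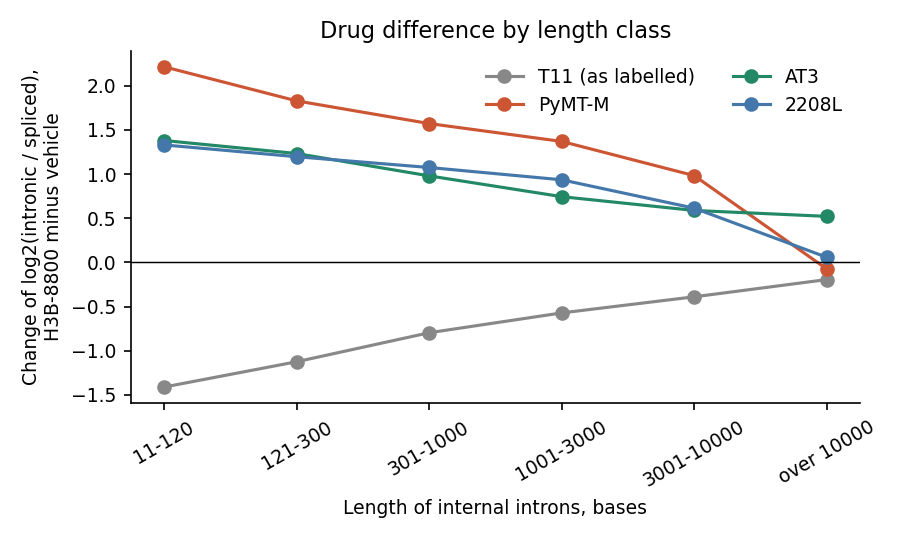
Log2 change of intronic over spliced reads, H3B-8800 over vehicle (y axis), for internal introns in classes of length in bases (x axis), one line per model. PyMT-M falls from 2.22 in the class of 11 to 120 bases to −0.07 above 10000 bases, and T11 lies below 0 in each class by its labels.

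The change declined over the length classes drawn in the plot of log2 change by length class. In PyMT-M it was 2.22 for introns of up to 120 bases, 1.83, 1.57, 1.37 and 0.98 in the next classes and −0.07 above 10000 bases. In 2208L it went from 1.33 to 0.06 and in AT3 from 1.38 to 0.52. The threshold of 120 bases marks no step. Introns of 115 to 120 bases, just inside it, went from 1.78% to 9.98% in PyMT-M, and the 778 introns just outside, over 120 and up to 126 bases, from 2.02% to 10.1%.

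Within the short introns, the shortest were the most retained in PyMT-M vehicle tumors. They changed most in percentage points and least on the log2 scale. In PyMT-M vehicle tumors the 113 introns under 70 bases stood at 13.1% ± 2.74, those of 70 to 74 bases at 6.88% ± 1.52 and those of 90 to 94 bases at 1.36% ± 0.371 (SD, n = 4). With H3B-8800 the same bins stood at 25.7%, 16.4% and 6.34%. On the log2 scale of intronic over spliced reads this is a change of 1.21 under 70 bases, 1.44 at 70 to 74, 2.34 at 90 to 94 and 2.64 at 115 to 120 bases. From 85 to 114 bases the bins of PyMT-M stayed between 2.31 and 2.45, with no steady rise. Intron by intron, length and log2 change in PyMT-M correlated at 0.07 over the 7096 introns tested (Pearson's r). The lowest and the highest bin were the same in AT3 (0.71 under 70 bases and 1.79 at 115 to 120) and 2208L (0.49 and 1.76).

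**Figure D3:**
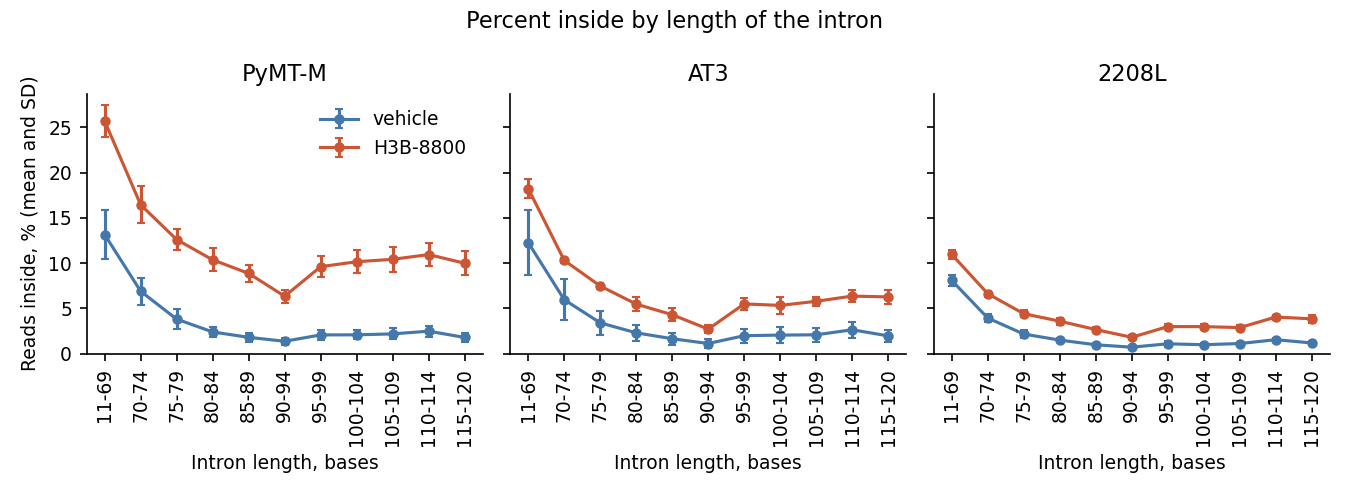
Percent of reads inside (y axis, mean over libraries with SD) by intron length in bases (x axis) for PyMT-M, AT3 and 2208L by treatment. Bins are of 5 bases, except the first, 11 to 69, and the last, 115 to 120. In PyMT-M the bin under 70 bases rises from 13.1% to 25.7% and the bin of 90 to 94 bases from 1.36% to 6.34%.

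The short introns were split by properties that do not use reads, and the drug effect of the sides was compared over PyMT-M, AT3 and 2208L. The 5800 introns longer than the median rose by 0.33 more than the other 6142, on the log2 scale of pooled intronic over spliced reads (exact permutation within models, adjusted over 5 splits, p = 0.000357). When each intron counted alike, in place of each read, that difference was 0.02 (p = 0.449 by the same exact permutation). Introns with an annotated exon inside differed from those without by −0.73 (exact permutation, adjusted p = 0.000357), and with each intron counted alike the sign turned to 0.15 (exact permutation, adjusted p = 0.167). Introns in the earlier part of their gene rose by 0.14 more than those in the later part (exact permutation, adjusted p = 0.0171), which turned to −0.16 with each intron counted alike (exact permutation, adjusted p = 0.0775). Lengths that are a multiple of 3, which keep the reading frame unless the intron holds a stop codon, differed from other lengths by −0.02 (exact permutation, adjusted p = 0.346). Genes with several short introns differed from genes with 1 by 0.05 (exact permutation, adjusted p = 0.346), and by 0.23 with each intron counted alike (exact permutation, adjusted p = 0.000714).

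The typical short intron moved from almost fully spliced to visibly retained. Over introns with at least 20 reads in the group, the median percent inside in PyMT-M was 1.10% with vehicle and 9.20% with H3B-8800. At least 10% of reads lay inside in 596 of 6455 introns with vehicle and in 3084 of 6426 (48.0%) with H3B-8800, and at least 50% in 24 and 450. In AT3 the median with vehicle was 1.25% and with H3B-8800 5.13%, and in 2208L the medians were 0.488% and 2.17%. The T11 libraries ran the other way, with 2.80% under the vehicle label and 0.710% under the H3B-8800 label. The spread among introns stayed wide, since 905 of the 6426 introns in PyMT-M given H3B-8800 were under 1%.

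Intron by intron, edgeR was fitted to the intronic counts of all introns with an offset for the spliced reads of each gene, which makes a change relative to that gene's spliced RNA. In PyMT-M, 3623 of the 7096 short introns tested (51.1%), in 1763 genes, were higher with H3B-8800 at an adjusted p under 0.05 and 9 were lower, where 40.1% of all 88303 introns tested were higher and 4.30% lower, 44.3% in all. The median log2 change was 2.67 for the short introns and 1.47 for all. In AT3, 572 were higher (8.06%, against 10.3% of all introns) with a median of 1.41 against 0.97. In 2208L, 645 were higher (9.09%, against 10.8%) and 2 lower (0.243% of all), with a median of 1.42 against 0.91. In the mean of the 3 models 3280 were higher (46.2%, against 40.9%) and 6 lower (1.78% of all), with a median of 1.87 against 1.16. The shares called in AT3 and 2208L are near those of all introns. No short intron was called lower in AT3 (0.146% of all introns were), where edgeR gave 5 lower at an unadjusted p under 0.05, DESeq2 called 0 and limma 6.

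The counts in AT3 and 2208L depended on single libraries, and the share of all introns called fell as well in most of these fits. In AT3 they were 168 (2.37%, against 3.6% of all introns) without vehicle replicate 1 and 225 (3.17%, against 4.68%) without vehicle replicate 3. Without vehicle replicate 2 they changed little, to 535 (7.54%, against 11.4%). Leaving out an H3B-8800 library of AT3 leaves 1 in its group, so no count is given for those fits. In 2208L they were 231 (3.26%, against 4.46% of all introns) without vehicle replicate 1, the library with the muscle markers. Without vehicle replicates 2 and 3 they were 414 (5.83%, against 8.38%) and 343 (4.83%, against 7.17%). Without H3B-8800 replicates 1, 2 and 3 they were 364 (5.13%, against 6.65%), 507 (7.14%, against 8.72%) and 444 (6.26%, against 8.48%). In PyMT-M leaving out a library left 2922 to 3445 (41.2% to 48.5%, against 37.1% to 45.7% of all introns). In T11 the 966 became 439 (6.19%, against 5.81% of all introns) without the library labelled vehicle replicate 2. Without those labelled vehicle replicates 1 and 3 they became 1145 (16.1%, against 13.9%) and 702 (9.89%, against 8.79%). Without those labelled H3B-8800 replicates 1, 2 and 3 they became 516, 484 and 563 (7.27%, 6.82% and 7.93%, against 6.13%, 6.04% and 8.18%).

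Of the 7096 short introns, 259 in 205 genes were called higher in all 3 models and 3656 in at least 1. These overlaps, and those with T11 below, were not counted over all introns. They describe the short introns and are not shown to be particular to them. Of the AT3 introns called higher, 96.7% were also higher in PyMT-M, which is 15.3% of those of PyMT-M, and of the 2208L introns 97.7%, which is 17.4%. Among all short introns tested, 51.1% were higher in PyMT-M, and among all introns 40.1%. The models have no samples in common. Across the 7096 introns the fitted log2 changes correlated at 0.42 between PyMT-M and AT3, 0.44 between PyMT-M and 2208L and 0.30 between AT3 and 2208L (Pearson's r; introns share libraries, and those of a gene its offset, so these are descriptions). By its labels T11 had 966 introns lower (13.6%, against 11.1% of all introns) and none higher (0.383% of all; edgeR, with 11 higher at an unadjusted p under 0.05 and 2 called by DESeq2 and 3 by limma). Of the 966, 916 (94.8%) were higher in PyMT-M, which is 25.3% of the PyMT-M introns. All 259 introns called higher in the other 3 models had a T11 change below 0, and 218 of them were called lower.

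The drug effect on single short introns was compared between PyMT-M and each of AT3 and 2208L. In edgeR none of 7096 passed for PyMT-M minus AT3 (0.00566% of all introns, 0.0034% higher and 0.00226% lower) and none for PyMT-M minus 2208L (0.0747% of all, 0.0532% higher and 0.0215% lower). At an unadjusted p under 0.05 they were 409 and 449. DESeq2 called 21 and 39 (0.296% and 0.550%, against 0.811% and 1.22% of all introns). Limma on the log ratio called 27 and 162 (0.380% and 2.28%, against 0.173% and 0.923%). Each of these short introns was higher in PyMT-M, so the answer depends on the tool. The median difference in log2 change was 1.01 for AT3, with 71.8% of the introns above 0, and 1.04 for 2208L, with 69.7% above 0, against medians of 0.40 and 0.36 over all introns.

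In most genes rich in short introns some of these introns were called and others were not. In 74 genes at least 10 short introns were tested, 1085 in all, and 550 of them (50.7%) were higher in PyMT-M. This is near the 51.1% of all short introns tested, and an intron not called is not shown to be unchanged. In 63 of the 74 genes some introns were called and others were not, in 5 all were and in 6 none was. Cc2d1a had 13 of 13 higher, Qars, a tRNA ligase, 12 of 12, and Ercc2, Tnpo2 and Zfp335 10 of 10 each. In Zfp335 the introns stood at 12.5% to 85.4% with H3B-8800. Col7a1, the collagen of anchoring fibrils, had 1 of 61, Col1a1 1 of 20 and Usp34 1 of 14. In between, Lama5 had 21 of 32, Cpsf1 22 of 29, Sbf1 18 of 24, Flna 18 of 23, Fasn 10 of 22 and Prpf8 7 of 17. The introns of a gene share its offset and its expression, so these counts describe the genes and compare no groups. Expression, and with it the reads behind a call, differed between these genes, and its part was not tested.

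A rise with no overlap between treatment groups in any of PyMT-M, AT3 and 2208L and an adjusted p under 0.05 for their mean was found for 1012 short introns in 653 genes, 627 of them with no annotated exon inside. This rule was not counted over all introns, so the number is not shown to be particular to short ones. The 10 of these 627 with the largest fitted change are named first. Stat3 encodes the transcription factor that carries interleukin signals to the nucleus, and its intron 9 (chr11:100903515-100903603, minus strand, mm10, 89 bases) led. In PyMT-M it stood at 0%, 0%, 0% and 1.11% with vehicle and 72.7%, 51.8%, 51.3% and 49.6% with H3B-8800. No vehicle library of AT3 or 2208L held a read inside it, while with H3B-8800 AT3 stood at 15.8% and 20.8% and 2208L at 11%, 10.4% and 19.9%. The T11 libraries with the vehicle label stood at 27.6%, 27.7% and 21.1% and those with the H3B-8800 label at 0%, 0% and 0%. The PyMT-M change of Stat3 intron 9 passed in edgeR (adjusted p = 3.59e-10), as did AT3 (adjusted p = 0.0134) and 2208L (adjusted p = 2.17e-04). Its neighbours moved less: intron 8, of 1144 bases, stood in PyMT-M at 1.45% ± 2.04 with vehicle and 5.51% ± 0.731 with H3B-8800, and intron 10, of 625 bases, at 1.59% ± 2.61 with vehicle and 5.88% ± 4.92 with H3B-8800.

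Where vehicle libraries hold no read, a fold change has no fixed size, so levels are given. Grwd1 encodes a histone-binding factor of ribosome assembly, and its intron 4 (chr7:45827669-45827779, minus strand) went in PyMT-M from 0%, 0%, 3.12% and 0% to 66.2%, 57.4%, 37.5% and 42.6%. With AT3 vehicle Grwd1 intron 4 held none of 160 overlapping reads, which allows up to 1.88%, and with H3B-8800 9.38% and 56.5%, so the AT3 tumors differed widely. The next intron of Grwd1, number 5 with 187 bases, stood in PyMT-M at 2.50% ± 1.96 with vehicle and 66.8% ± 5.37 with H3B-8800. Iqgap1, a scaffold of the actin cortex, had no read in intron 27 (chr7:80730154-80730241, minus strand) in any vehicle library of the 3 models, and 26%, 23.8%, 14.2% and 23% with H3B-8800 in PyMT-M, 2.04% and 13.2% in AT3 and 10.6%, 7.56% and 3.88% in 2208L. Around it, intron 28 of Iqgap1, of 987 bases, stood in PyMT-M at 6.39% ± 2.54 with vehicle and 11.9% ± 4.44 with H3B-8800, with groups less far apart. Ppp1r37 encodes an inhibitor of protein phosphatase 1, and its intron 6 (chr7:19534527-19534606, minus strand) stood at 1.72%, 0%, 0.714% and 1.09% and 48.9%, 38.5%, 46.2% and 45.5% in PyMT-M. The following intron of Ppp1r37, number 7 with 294 bases, was higher still, at 1.92% ± 0.692 with vehicle and 57.7% ± 5.73 with H3B-8800.

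Hgs is a component of the complex that sorts ubiquitinated receptors on endosomes, and its intron 12 (chr11:120478375-120478461, plus strand) went in PyMT-M from 0%, 0%, 2.50% and 2.38% to 54.2%, 30.3%, 31.9% and 42.3%. The log2 change of Hgs intron 12 in PyMT-M was 5.45 ± 0.89 (SE; edgeR, adjusted p = 7.93e-07). The adjoining intron 13 of Hgs, of 89 bases, stood at 0.838% ± 0.976 with vehicle and 9.71% ± 0.527 with H3B-8800, a lower level at nearly the same length. Josd1, a deubiquitinase, had the highest levels of the 10 in its intron 2 (chr15:79677292-79677398, minus strand). All 4 PyMT-M vehicle libraries were at 0 and those given H3B-8800 at 85.7%, 80%, 71% and 77.5%. In AT3 Josd1 intron 2 stood at 3.45%, 6.78% and 0% against 45.2% and 61.6%, and in 2208L at 2.50%, 2.78% and 0% against 50.7%, 32.4% and 43%. T11 libraries labelled vehicle were at 34.2%, 57.1% and 53.3% and those labelled H3B-8800 at 0%, 1.92% and 0%. Gmppb makes GDP-mannose for glycosylation, and its intron 2 (chr9:108049842-108049928, plus strand) went in PyMT-M from 0%, 0%, 1.63% and 1.45% to 57.8%, 52.7%, 43.1% and 46.4%. Intron 1 of Gmppb, of 115 bases, stood at 1.76% ± 1.60 with vehicle and 2.20% ± 1.85 with H3B-8800, so neighbouring short introns of 1 gene ended at different levels.

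The other 3 stayed under 20% in PyMT-M. Bckdk, the kinase that restrains the breakdown of branched-chain amino acids, went in intron 6 (chr7:127905993-127906071, plus strand) from 0.326%, 0.322%, 0.539% and 1.11% to 17.1%, 15.2%, 12% and 14.6% in PyMT-M. Shmt2, the mitochondrial serine hydroxymethyltransferase of folate metabolism, had no read in intron 4 (chr10:127519512-127519629, minus strand) in PyMT-M vehicle libraries and 13.4%, 13.5%, 9.20% and 14.6% with H3B-8800. Cse1l, the export receptor of importin alpha, held none of 341 overlapping reads, which allows up to 0.88% in intron 4 (chr2:166922072-166922154, plus strand) with PyMT-M vehicle and 14.1%, 6.52%, 18.8% and 19.7% with H3B-8800. Each of these was higher in all 3 models without overlap, as the rule required. Cse1l intron 5, of 453 bases, stood at 0.98% ± 1.96 with vehicle and 0.909% ± 1.82 with H3B-8800.

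**Figure D4:**
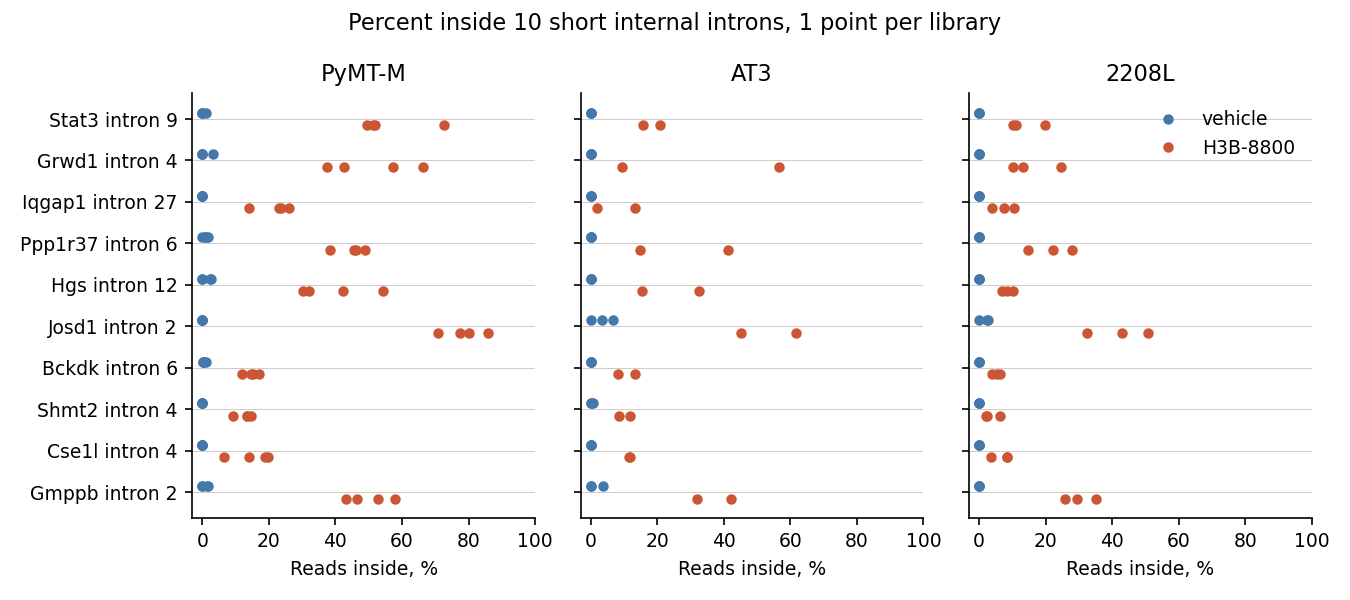
Percent of reads inside (x axis) for the 10 named introns with the largest rise (y axis), with one point per library of PyMT-M, AT3 and 2208L by treatment. For Josd1 intron 2 the PyMT-M H3B-8800 libraries lie at 71.0% to 85.7% and the PyMT-M vehicle libraries at 0.

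Lists of genes were read next, beside the 51.1% of all short introns tested that were higher in PyMT-M, with a median log2 change of 2.67. The lists were chosen with results of these data known, and their counts are descriptions. Among the particles that H3B-8800 acts on, the SF3A, SF3B and U2 genes had 34 short introns tested, of which 17 (50%) were higher in PyMT-M and none lower, with a median of 2.28. Sf3b2, a subunit of SF3B itself, had its intron 17 (chr19:5279371-5279469, minus strand) at 0.813%, 0%, 0.229% and 0.218% with vehicle and 23%, 19.8%, 17.8% and 12.9% with H3B-8800 in PyMT-M. The log2 change of Sf3b2 intron 17 was 5.58 ± 0.78 (SE; edgeR, adjusted p = 1.99e-08). Puf60, a U2 auxiliary factor, had intron 5 at 7.84%, 8.30%, 5.42% and 8.86% with H3B-8800 and 0%, 0%, 1.44% and 1.26% with vehicle. These groups did not overlap either.

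The other core spliceosome genes had 48 of 83 higher (57.8%, median 3.00) and none lower. Sart1, which brings the tri-snRNP to the spliceosome, had intron 16 (chr19:5381117-5381209, minus strand) at 1.28%, 1.10%, 0.719% and 1.20% and 60.1%, 40.4%, 39.1% and 43.2% in PyMT-M. Xab2, a member of the complex that surrounds the catalytic centre, went in intron 8 from 0%, 0%, 4.12% and 0% to 79.5%, 62.3%, 62.6% and 65.8%. In AT3 the H3B-8800 libraries of Xab2 intron 8 were far apart, at 24.5% and 5.63%, and the change did not pass (edgeR, adjusted p = 0.176). SR proteins, their kinases and hnRNPs had 24 of 38 higher (63.2%, median 2.50). Clk3, a kinase of SR proteins, was already part retained with vehicle, at 8.71%, 7.98%, 10.8% and 13.2% in intron 8 (chr9:57753401-57753500, minus strand), and stood at 87.8%, 84%, 88.4% and 82.1% with H3B-8800. Ptbp1, the polypyrimidine tract-binding protein, had intron 3 at 0.621%, 0.717%, 0.889% and 0% and 31.5%, 28.4%, 34.2% and 24%. The change of Ptbp1 intron 3 was 5.96 ± 0.78 on the log2 scale (SE; edgeR, adjusted p = 2.97e-09).

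Genes of protein synthesis and breakdown came out at or above the share of all short introns. Translation factors and tRNA ligases had 74 of 106 higher in PyMT-M (69.8%, median 2.98). Eif4g1, the scaffold of the cap-binding complex, whose intron 11 is printed above, stood at 0%, 0%, 0.234% and 0% with vehicle and 14.6%, 15.8%, 16.2% and 10.3% with H3B-8800. Vars, the valine tRNA ligase, went in intron 13 (chr17:35011695-35011807, plus strand) from 2.45%, 0%, 3.45% and 3.85% to 50.7%, 53.7%, 39.6% and 53.2%. Cytosolic ribosomal protein genes had 15 of 24 higher (62.5%, median 2.39), at low levels. Rpl8 intron 2 stood at 0.331%, 0.131%, 0.427% and 0.298% and 3.27%, 2.99%, 2.97% and 3.14%, and Rpl13a intron 3 at 0.638%, 0.461%, 1.08% and 0.819% and 8.91%, 5.79%, 8.71% and 6.44%. Ribosomal protein genes have processed pseudogenes that can share reads with them. Proteasome and ubiquitin genes had 42 of 73 higher (57.5%, median 2.72). Psmd4, a ubiquitin receptor of the proteasome, had intron 7 at 1.57%, 1.94%, 2.25% and 1.82% and 21.5%, 25.7%, 12.5% and 21.4%, and Psmb10, a subunit of the immunoproteasome, intron 3 at 2.86%, 1.65%, 3.29% and 4.67% and 28.7%, 36.1%, 32.9% and 25.1%.

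Genes of the nucleus followed. DNA repair and p53 genes had 31 of 49 higher (63.3%, median 2.89). Ercc2, a helicase of the TFIIH complex, had intron 18 (chr7:19393342-19393432, plus strand) at 15.2%, 7.83%, 17.1% and 5.92% with vehicle and 78.7%, 67.6%, 61.4% and 75% with H3B-8800, and Ddb1, which links damage recognition to a ubiquitin ligase, had intron 14 at 0.362%, 0%, 0% and 0% and 7.47%, 4.29%, 5.33% and 6.85%. Replication and mitosis genes had 46 of 104 higher (44.2%) but a median of 3.43. Aurkb, the kinase of the chromosomal passenger complex, had intron 5 (chr11:69048645-69048730, plus strand) at 1.72%, 5.36%, 0% and 1.61% and 88.9%, 78.3%, 91.7% and 51.2%, and its T11 libraries labelled vehicle stood at 30.9%, 66.2% and 66.9%. Cdk9, the kinase that releases paused RNA polymerase II, had intron 4 at 1.04%, 0%, 1.79% and 0.806% and 37.1%, 20.7%, 20.6% and 17%. Chromatin enzymes had 70 of 139 higher (50.4%, median 2.96) and RNA polymerase II, Mediator and Integrator genes 54 of 105 (51.4%, median 2.73) with 1 lower.

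Kdm6b, a demethylase of histone H3, had some of the highest levels in intron 12 (chr11:69403684-69403789, minus strand), at 0%, 0%, 3.57% and 3.45% with vehicle and 86.9%, 70.5%, 87.5% and 87% with H3B-8800 in PyMT-M. Intron 11 of Kdm6b, of 89 bases, stood at 0.51% ± 1.02 with vehicle and 4.16% ± 3.40 with H3B-8800. Brd2, a reader of acetylated histones, had intron 8 at 4.45%, 0.923%, 2.68% and 2.27% and 55%, 24.8%, 44.1% and 36.1%. Supt5, an elongation factor, had introns 12 and 15 both higher, with Supt5 intron 12 at 0.535%, 0%, 3.12% and 0% against 38.5%, 37.3%, 36.6% and 31.8%. Nuclear pore and export genes had 56 of 89 higher (62.9%, median 2.93). Tnpo2, a nuclear import receptor, had intron 9 (chr8:85047182-85047289, plus strand) at 2.35%, 1.56%, 13.5% and 5.71% and 81.6%, 65.8%, 62.3% and 72.9%.

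Signalling and immune genes had the highest shares in PyMT-M. Interferon response and antigen presentation genes had 20 of 25 higher in PyMT-M (80.0%, median 3.48), 9 in 2208L and 4 in AT3. In the mean of the 3 models 14 of the 25 were higher (56%, where all short introns had 46.2%), a lower share than that of the signalling genes (66.3%), translation factors (66.0%) and ribosomal protein genes (62.5%). Irf3, which induces type I interferon, had intron 3 (chr7:45000064-45000153, plus strand) at 5.49%, 2.65%, 6.95% and 8.33% with vehicle and 72.7%, 74.7%, 61.8% and 70.6% with H3B-8800 in PyMT-M. In AT3 Irf3 intron 3 stood at 14.5%, 14% and 17.6% and 77.4% and 75%, and in 2208L at 5.32%, 12.1% and 8.33% and 52.8%, 65.3% and 56.5%. These genes are also expressed by immune cells, whose macrophage markers were higher with H3B-8800 in PyMT-M and 2208L, and the part of those cells was not tested. MAPK, PI3K, mTOR and receptor signalling genes had 69 of 98 higher (70.4%, median 3.45). Csk, which holds Src-family kinases in check, had intron 9 at 1.74%, 0%, 0.775% and 0% and 68.9%, 34.8%, 54.4% and 51.4%, without overlap.

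Death, metabolic and structural genes were mixed. Cell death genes had only 6 short introns tested, with 3 higher in PyMT-M, and Tradd, an adaptor of the TNF receptor, was already at 29%, 26.4%, 13.2% and 24.4% in intron 3 with vehicle against 50.7%, 60%, 57.6% and 55.8%. Glycolysis and central metabolism had 28 of 67 higher (41.8%, median 2.46). Fasn, the fatty acid synthase, had intron 14 (chr11:120816738-120816846, minus strand) at 0 in all PyMT-M vehicle libraries and at 54.2%, 62.9%, 51.7% and 28.9% with H3B-8800. In AT3 Fasn intron 14 rested on 1 tumor, at 0% and 31%, and without that tumor (H3B-8800 replicate 2) its mean change over the 3 models no longer passed (edgeR, adjusted p = 1). Lysosome and vesicle traffic genes had 39 of 77 higher (50.6%, median 2.56) with 1 lower. Vps39, of the tethering complex of lysosomes, had intron 13 at 9.09%, 0%, 2.70% and 0% and 76.5%, 84%, 56.5% and 71.2%.

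Actin, tubulin, keratin and filament genes had 74 of 144 higher (51.4%, median 3.11). Tubb4b, a beta tubulin, had intron 2 at 2.25%, 1.35%, 3.66% and 1.03% and 19.7%, 14.6%, 19.5% and 18.5%, and Flna, the actin crosslinker filamin A, intron 29 at 1.19%, 0%, 1.03% and 0% and 14.8%, 28.9%, 19.2% and 22.7%. Collagens and matrix genes had the lowest share of the lists other than markers, 49 of 268 (18.3%, median 2.06). Lamb2, a laminin chain, nevertheless had intron 23 at 0 in every PyMT-M vehicle library and at 24.5%, 20.6%, 10.4% and 23.1% with H3B-8800. Among marker genes of single cell types, 2 of 11 macrophage introns, 3 of 11 epithelial, 3 of 22 mesenchymal and none of 30 muscle introns were higher in PyMT-M (edgeR). No intron of the B cell or T cell markers had enough reads to be tested.

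**Figure D5:**
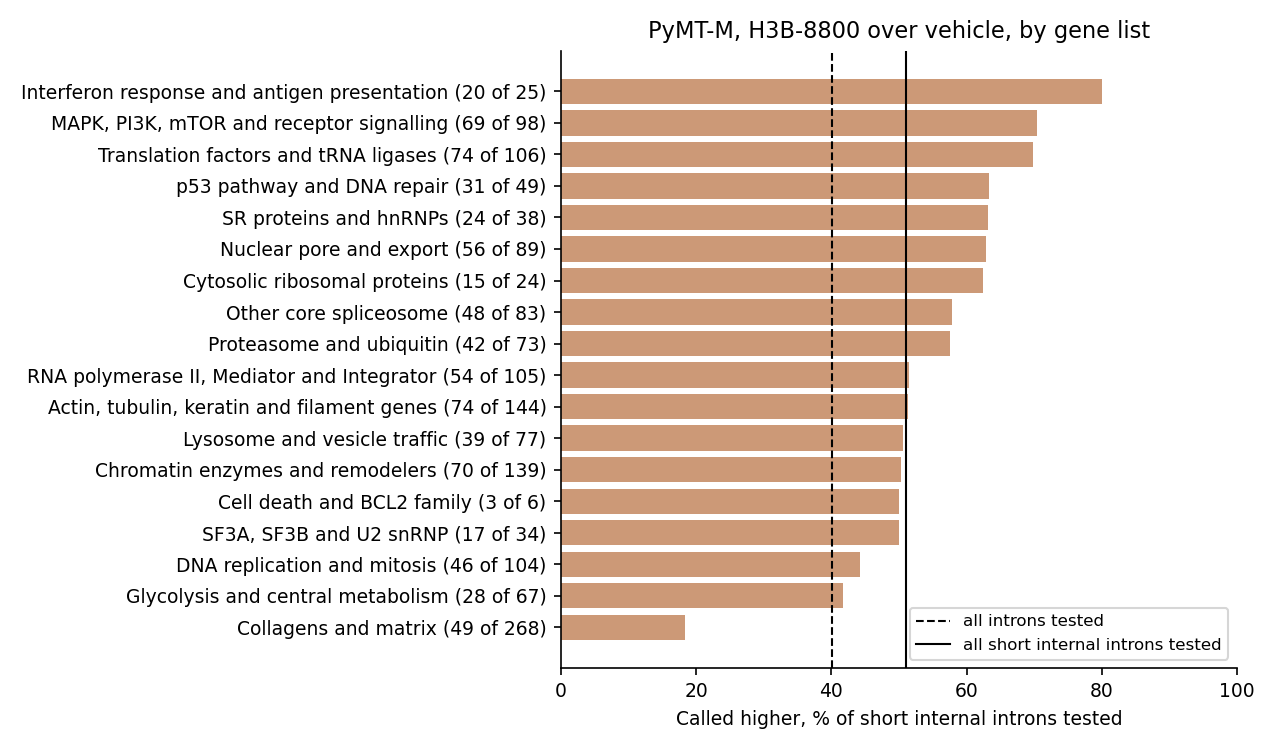
Share of short internal introns tested that were called higher with H3B-8800 in PyMT-M (x axis, percent) for each gene list (y axis, with the number called and tested); the solid line is the share of all short internal introns, 51.1%, and the dashed line that of all introns, 40.1%. Interferon genes reach 80.0% and collagens and matrix genes 18.3%.

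Many short introns stayed spliced. A mean percent inside of under 1% in all 6 groups of PyMT-M, AT3 and 2208L was found for 441 introns in 350 genes, and 24 of them were called higher in the mean of the 3 models while staying under 1%. The same counts were not made over introns of every length. The 4 of the 441 with the most reads lie in Eef1a1, the elongation factor that brings tRNA to the ribosome, and Hspa8, a constitutive chaperone. Eef1a1 intron 2 (chr9:78480421-78480510, minus strand) stood at 0.0919%, 0.0385%, 0.0837% and 0.0348% with vehicle and 0.352%, 0.351%, 0.362% and 0.463% with H3B-8800 in PyMT-M, so the rise was seen but stayed small in level (log2 change over the 3 models 2.09 ± 0.33, SE; edgeR, adjusted p = 2.16e-07). Eef1a1 intron 5 stood at 0.12%, 0.0561%, 0.254% and 0.241% and 0.38%, 0.305%, 0.362% and 0.358% and did not pass (edgeR, mean of 3 models, adjusted p = 0.31). Hspa8 intron 7 stood at 0.328%, 0.312%, 0.405% and 0.249% and 0.809%, 0.617%, 0.51% and 0.906%, and its mean change over the 3 models was 0.23 ± 0.32 (SE; edgeR, adjusted p = 0.679). Hsp90ab1 intron 5, of a heat shock protein and printed above, stood at 0.387%, 0.153%, 0.154% and 0.271% and 0.704%, 0.509%, 0.709% and 0.787%. Eef1a1 has processed pseudogenes that lack these introns, and reads shared with them would be spliced reads.

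Very few short introns fell. None met the rule for a fall without overlap in all 3 models. In the mean of the 3 models 6 were called lower, in Psap, Pbxip1, Adam15, Ip6k2, Senp3 and Rfng, and these were named after their values were seen. Ip6k2 makes inositol pyrophosphates, and its intron 2 (chr9:108798179-108798270, plus strand) stood in PyMT-M at 27.4%, 23.6%, 25.2% and 37.5% with vehicle and 5.38%, 7.83%, 6.60% and 5.50% with H3B-8800, a log2 change of -2.22 ± 0.62 (SE; edgeR, adjusted p = 0.00264). Its AT3 libraries overlapped, at 20.3%, 31% and 12.1% and 14% and 17.3%. Adam15, a membrane metalloprotease, had intron 14 at 29.1%, 8.42%, 19% and 36.1% and 5.65%, 6.52%, 4.96% and 6.90% in PyMT-M. Senp3, a SUMO protease, had intron 4 at 21.9%, 18.9%, 26.5% and 25.9% and 12.3%, 8.46%, 5.44% and 7.48%, with PyMT-M alone not passing (edgeR, adjusted p = 0.0546). Psap, the precursor of lysosomal saposins, had intron 7 lower in 2208L, at 0.587%, 0.543% and 0.733% against 0.128%, 0.15% and 0.106% (edgeR, adjusted p = 0.0244), and in PyMT-M (edgeR, adjusted p = 0.0255). The calls for Psap, Pbxip1, Adam15, Ip6k2 and Senp3 were lost when the library size replaced the gene's spliced reads as offset, and that for Rfng was lost without any of 14 of the 19 libraries.

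Vehicle tumors of PyMT-M and AT3 differed at 7 short introns, 2 higher in PyMT-M (0.258% of all introns were) and 5 lower (0.186% of all). The 5 that were lower are Prdx2 intron 2, Krtcap3 intron 5 and introns 10, 13 and 16 of Elmo3. Krtcap3 and Elmo3 are epithelial genes with few reads in AT3, where epithelial markers were low: Elmo3 intron 13 had 10 of 11 reads inside in AT3 vehicle tumors against 25 of 391 in PyMT-M. Leaving out 1 library left 1 to 10 calls, with 4 without PyMT-M vehicle replicate 2 and 2, 1 and 3 without AT3 vehicle replicates 1, 2 and 3. With library size as offset 292 were called (4.11%, against 12.4% of all introns). Of these, 160 (54.8%) were higher in PyMT-M, against 28.6% of the 7 called with the gene's spliced reads as offset.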

How the data were processed

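Polyadenylated RNA of 25 whole tumors had been sequenced from stranded libraries, per the labels' protocols. Reads were aligned with HISAT2 2.0.4 and the builds mm10 and hg38 are named, per the submitters' processing notes. The counting tool and the annotation release were not given in the sources used here. For each intron of 1 RefSeq transcript per gene, the deposited files hold the raw count of reads inside it, the raw count of reads overlapping it and the authors' RPKM of the former, which was used only to check which column holds the intronic count. No header says how reads across an exon-intron edge were counted. Coordinates match mm10. The 22 introns of 10 bases or less lack values and were left out.

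Spliced reads were taken as overlapping minus intronic reads. The pooled percent was compared by exact permutation of libraries within models. Pooled ratios were compared as log2 of intronic over spliced reads, with nothing added. In ratios of single introns 0.5 was added to both counts. Introns were fitted in edgeR 4.0.16 under R 4.3.3 (robust quasi-likelihood, 8 group means, all 25 libraries), with an offset equal to the log of spliced reads of the gene. Tested introns, 88303 of every length, had a mean of at least 20 overlapping reads in genes with at least 1 CPM in at least 2 libraries. Passing needed no intronic reads. Overlapping reads include intronic ones, however, so an intron could also pass through reads gained in the groups where its retention was high. P-values were adjusted by Benjamini-Hochberg over all introns tested, and called means an adjusted p under 0.05. The scripts were tested on simulated data. DESeq2 1.42.0, limma 3.58.1, other filters, library size by TMM as offset, a replicate block and fits without single libraries were alternatives. The muscle-rich library left out, the comparison of T11 with the other models and the source of sequences were chosen after seeing the data. Introns and lists were chosen with earlier results of these data known.

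Named were the 10 introns with the largest mean rise over PyMT-M, AT3 and 2208L that passed, did not overlap between treatments in any of the 3, averaged 20 overlapping reads in each group and held no annotated exon, up to 2 called introns per gene list with the smallest p, the 4 with the most reads that stayed under 1%, and every intron of a count of 5 or fewer. Single introns of 3 genes are not reported here. The 9 printed sequences come from transcripts of GENCODE M21. A split by GC content is void, since only 14.8% of the introns have a sequence. Replicates of a group were not identical in any pair. Limits for counts of 0 allow 3 reads and cover counting error only, as PCR copies were not removed by molecular identifiers.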

Additional observations from a re-analysis of the deposited data

Results flagged for a closer look

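The drug effect on the pooled percent ran the other way in T11. By its labels, it was −6.26 percentage points away from the mean effect of PyMT-M, AT3 and 2208L. This difference was not tested on independent data, and no p is given because the direction of T11 was known. All 3 T11 libraries labelled H3B-8800 lay below all 3 labelled vehicle, whereas every H3B-8800 library of the other models lay above every vehicle library of its model. Macrophage markers stood higher in T11 under the H3B-8800 label than under vehicle (997 to 1086 against 527 to 938 CPM), the direction of PyMT-M and 2208L. In AT3 the groups overlapped in these markers (924 to 956 against 730 to 1208 CPM). Whether the T11 labels are exchanged was not tested.

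Among 92 groups of 4 libraries of named introns, 7 had a library far from the other 3, and chance gives about 1 in 20 for values without ties. That rate does not apply to 5 of the 7, where the other 3 libraries are at 0 and any read sets the library apart. With vehicle in PyMT-M, these were single libraries above others at 0: Stat3 intron 9 at 1.11% in replicate 4, Grwd1 intron 4 at 3.12% in replicate 3, Xab2 intron 8 at 4.12% in replicate 3, Eif4g1 intron 11 at 0.234% in replicate 3 and Ddb1 intron 14 at 0.362% in replicate 1. With H3B-8800 in PyMT-M, Stat3 intron 9 stood at 72.7% in replicate 1 against 49.6% to 51.8% in the others, and Kdm6b intron 12 at 70.5% in replicate 2 against 86.9% to 87.5%.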

How the results depend on the processing

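Over the alternatives run, 272 of the values that answer a comparison kept their direction and side of the threshold, or a count within 1.5 times, 41 moved, 11 lost their call, 1 gained one and 3 turned sign. Of the values of single named introns 1834 kept theirs, 40 lost their call, 7 gained one and 7 turned sign. The pooled difference in PyMT-M was 7.06 to 7.88 points without 1 library, where the exact permutation p cannot go below 0.0571. The log2 difference between short and longer introns was 0.36 with T11. With each intron counted alike, the split by length was 0.024, by annotated exon 0.15, by position −0.16 and by number in the gene 0.23. Without 1 library, the split by position was 0.11 to 0.17 and the split by number −0.0048 to 0.11.

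Counts of short introns called moved as follows. With library size as offset vehicle tumors had 292 (4.11%, against 12.4% of all introns). DESeq2 gave 982 in AT3 (13.8%, against 15.1% of all introns) and 29 for vehicle tumors (0.409%, against 1.53%). For PyMT-M minus AT3 and minus 2208L it gave 21 and 39. Limma gave 1475 in T11 (20.8%, against 10.96% of all introns), 876 in AT3 (12.3%, against 8.45%) and 1060 in 2208L (14.9%, against 12.04%). It gave 27 and 162 for the differences between models and 473 for vehicle tumors (6.67%, against 4.63%). In AT3 and 2208L the limma shares of short introns lay above those of all introns, whereas the edgeR shares lay below. Without a filter the differences between models had 3 and 1 (0.0312% and 0.0104%, against 0.811% and 0.450% of all introns). A filter of at least 5 intronic and 10 spliced reads left 2486 short introns tested. It gave 2003 in PyMT-M (80.6%, against 60.3% of all introns tested) and 1937 in the mean of 3 models (77.9%, against 58.7%). It gave 1 for PyMT-M minus 2208L. This filter needs intronic reads, so an intron could pass through reads gained in the groups where its retention was high. Its shares, and their distance from those of all introns, are therefore no support for a larger effect in short introns. A fit on AT3 alone gave 259 (3.65%, against 5.81% of all introns). Without 1 library the counts were 439 to 1145 in T11, 99 to 535 in AT3, 231 to 507 in 2208L, 0 to 4 for both differences between models and 1 to 10 for vehicle tumors.

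Replicate numbers do not pair the samples, since same-numbered libraries deviated together at −0.05 to 0.18 and others at −0.12 to 0.17, and not every library correlated best with its own number. A replicate block changed the counts to 601 in T11 (8.47%, against 8.62% of all introns) and 119 in AT3 (1.68%, against 3.94%). For PyMT-M minus AT3 it gave 1 (0.0141%, against 0.258%). For vehicle tumors it gave 0 (0.160% of all introns; edgeR, 58 at an unadjusted p under 0.05). It left 2710 in PyMT-M (38.2%, against 37.8%), so the higher share of short introns was not seen there. In the mean of the 3 models the shares were 34.1% and 35.3%. With the block the pooled difference over the 3 models was 4.03 points (exact permutation, p = 0.00391).

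Signs turned for Hspa8 intron 7 (−0.057) and Elmo3 intron 16 (−0.037) with library size as offset, Prdx2 intron 2 with limma (−0.36), Krtcap3 intron 4 with the block (0.0039) and without AT3 vehicle replicate 3 (−0.24 to 0.0064 over single libraries left out), and, without AT3 H3B-8800 replicate 2, Elmo3 intron 10 (−1.28 to 1.86 over single libraries) and Elmo3 intron 13 (−0.46 to 2.97). Depth limits single introns, as tested ones held a median of 39 to 113 overlapping reads per library.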
